A study of Mus musculus with 11 samples.

Results

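The vascular endothelial growth factor (VEGF) ligands Vegfa, Vegfb, Vegfc, Vegfd and Pgf and their receptors Flt1, Kdr and Flt4 were followed across 3 genotypes of mouse trigeminal ganglia. They were chosen by name, as every probe set annotated to 1 of these genes alone, and Vegfd appears under its older symbol Figf in early literature. All 8 genes, of 13675 named on the arrays, had a probe set. There were 10 on the U74Av2 array (of 12488) and 2 on the U74Bv2 array (of 12411).

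Ganglia, the sensory ganglia of the face, came from embryos at embryonic day 13.5. Embryos carried 0, 1 or 2 knockout alleles of Pou4f1 (wild-type, heterozygote and knockout in the labels), the gene of Brn3a, a POU-domain transcription factor of sensory neurons. The labels give neither the strain nor which part of the gene was deleted. Each array held RNA from 10 to 12 pooled ganglia of 1 genotype, with 2 arrays per genotype except for a single wild-type U74Bv2 array. Nothing in the labels says that pools came from separate litters, so p-values measure only the spread between these arrays.

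VEGF ligands are secreted dimers that signal through receptor tyrosine kinases. Vegfa acts through Flt1 and Kdr and drives the growth of blood vessels, while Vegfb and Pgf bind Flt1. Vegfc and Vegfd are closely related, are made as precursors that proteases trim, and bind Flt4, the receptor of lymphatic endothelium. Trimmed Vegfc also binds Kdr. Neuropilins, which also bind semaphorins on growing axons, serve as co-receptors.

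The targeted gene was checked on U74Bv2 only, which holds its probe set, so it says nothing of the U74Av2 arrays. Pou4f1 had a signal of 3313 in wild-type, 2196 and 3570 in heterozygotes, and 550 and 904 in knockouts. Both knockout arrays lay below the other 3, while heterozygote array 2 lay above the lone wild-type array. Sensory neuron markers were bright on every array, their summed signal over 16 genes on U74Av2 lying between 78555 and 111583. The neuronal tubulin Tubb3 alone, from a family probe set, had signals of 17183 to 35465. Signals are MAS5 intensities, 1 per probe set on a linear scale and comparable between arrays but not between probe sets.

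Vegfd rose in knockout ganglia, and it was the 1 member called among the 6 of 12 member probe sets that could be tested. Its signal was 17.0 and 37.6 on the wild-type arrays, 103 and 62.9 on the heterozygote arrays, and 508 and 478 on the knockout arrays. Both knockout arrays stood far above the other 4, and both heterozygote arrays stood above both wild-type arrays, with no overlap between any genotypes. The mean rose from 27.3 ± 14.6 (SD, n = 2) in wild-type to 492.8 ± 20.8 (SD, n = 2) in knockout ganglia.

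On the scale of log2(signal + 50.0), which damps changes of dim probe sets, the rise was 2.82 ± 0.31 SE. The 95% interval of this log2 difference was 2.10 to 3.55 (limma adjusted p = 0.0198). Of the 7453 probe sets tested, 19 were called at an adjusted p under 0.05, or 0.255%, and Vegfd had the 5th largest rise of all those tested. The difference was 3.06 between the number 1 arrays and 2.59 between the number 2 arrays. With a pseudocount of 16 in place of 50.0 it was 3.60.

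Vegfd entered the test through the knockout arrays. Its mean lay at percentile 40.3 of all probe sets, just inside the filter set at percentile 40, and its wild-type and heterozygote signals all lay below the level that the filter equals, a signal of 124. With no filter the call held at adjusted p = 0.0467. It was lost without wild-type array 1 (2.63, adjusted p = 0.138) and without wild-type array 2 (3.02, adjusted p = 0.103). Without knockout array 1 (2.78) or 2 (2.86) Vegfd fell below the filter, and with the filter also removed the adjusted p was 0.317 and 0.316.

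The heterozygote stood between the other genotypes, nearer to wild-type. Its mean signal was 83.1 ± 28.5 (SD, n = 2) compared with 27.3 in wild-type and 492.8 in knockout ganglia. Both wild-type signals lay below the pseudocount and all 4 wild-type and heterozygote signals below the filter level, so no ratio to them is given. Heterozygote minus wild-type was 0.78 ± 0.31 SE (95% interval 0.05 to 1.51, limma adjusted p = 1.00), 1.19 between the number 1 arrays and 0.37 between the number 2 arrays. It was 1.21 with a pseudocount of 16 and 0.52 with the pseudocount doubled.

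That difference did not pass. In heterozygote against wild-type no probe set on U74Av2 was called by limma (0% of 7453), and 52 had an unadjusted p under 0.05, Vegfd among them (unadjusted p = 0.0391). Knockout minus heterozygote was 2.04 ± 0.31 SE (95% interval 1.32 to 2.77, limma adjusted p = 0.0901). It did not pass in the main fit either, in a comparison that called 0.188% of probe sets. Some alternatives did call it, as the closing section gives. Set against the midpoint of wild-type and knockout, the heterozygote lay 0.63 lower on the log2 scale (-0.63 ± 0.27 SE, limma adjusted p = 1.00). The 95% interval was -1.26 to -0.002 (limma unadjusted p = 0.0494), and -1.29 to 0.03 without the filter. On the signal scale the midpoint was 260, above both heterozygote arrays (103 and 62.9), with no test. Whether the heterozygote departs from the log2 midpoint is not resolved by 2 arrays per genotype.

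**Figure D1:**
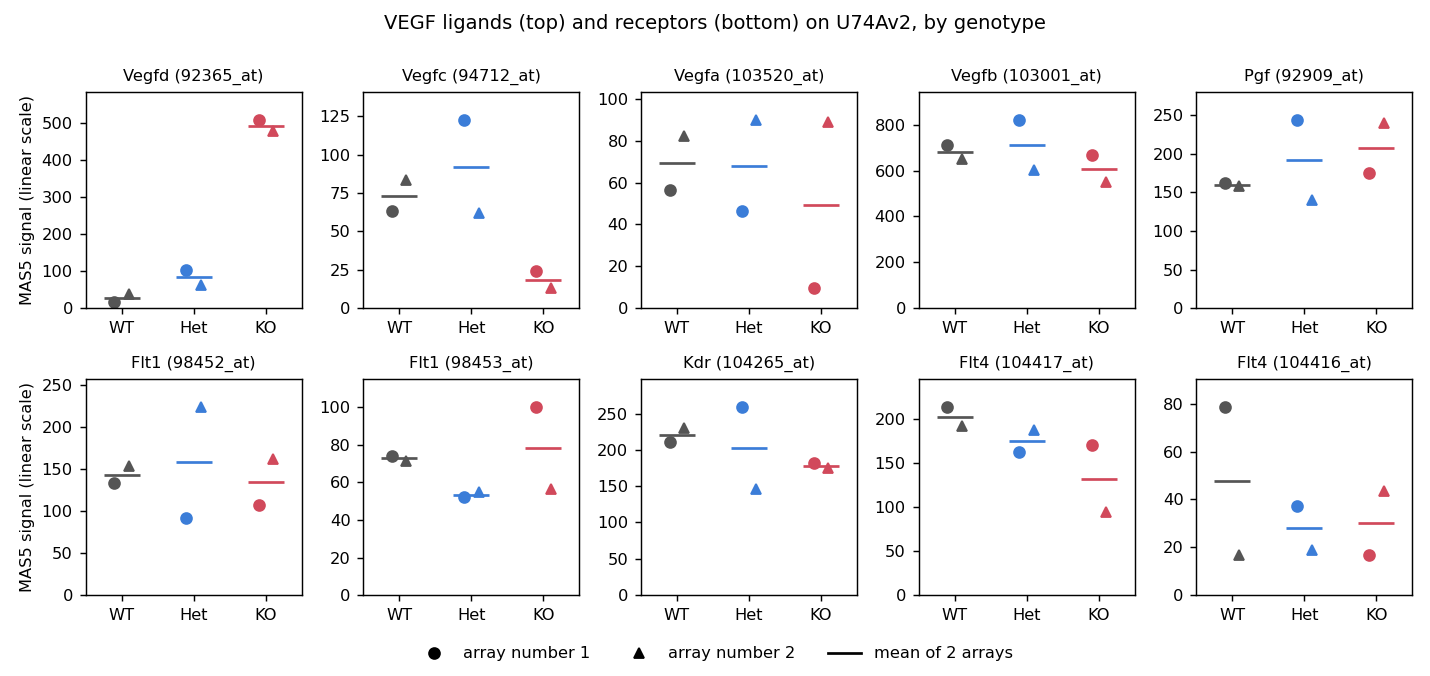
MAS5 signal (linear axis from 0, own scale in each panel) of the 10 VEGF ligand and receptor probe sets on the 6 U74Av2 arrays, with ligands above and receptors below. Points are single arrays, by array number, and bars are means of 2 arrays; for Vegfd the knockout arrays at 508 and 478 stand above the other 4, which lie at or below 103, and for Vegfc both knockout arrays lie below the other 4.

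The sequence just before the Vegfd start site is shown because Vegfd was the responding member. It covers 250 bases, chrX:164373272-164373521 on the plus strand of GRCm38.p6, from RefSeq. Capitals mark a match to the letters of the TATA box motif, which begins 73 bases before the start. Whether it serves as a TATA box was not tested.
Vegfd promoter: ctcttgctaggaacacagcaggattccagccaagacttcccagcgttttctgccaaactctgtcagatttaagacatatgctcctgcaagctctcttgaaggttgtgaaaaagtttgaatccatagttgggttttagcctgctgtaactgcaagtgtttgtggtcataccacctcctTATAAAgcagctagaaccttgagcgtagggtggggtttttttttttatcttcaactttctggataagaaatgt
On both strands, 3 motifs were searched. The TATA box letters TATAAA occur in 12.4% of 32851 promoter windows of this length. ATTAAT, the core bound by POU proteins of the Brn3 class, occurs in 4.39% of windows and not in this one. TGANTCA, the AP-1 site bound by Fos and Jun proteins, occurs in 6.75% and not in this one. These letters were sought in this window alone.

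Vegfc, the nearest relative of Vegfd, lay in the opposite direction. Its signals were 63.4 and 83.3 in wild-type, 123 and 62.1 in heterozygote, and 24.4 and 12.8 in knockout ganglia. Both knockout arrays lay below the other 4. Knockout minus wild-type was -0.85 on the log2 scale and knockout minus heterozygote -1.02. The probe set was too dim for the filter, and in the fit without it these differences had an SE of 0.29 and did not pass (adjusted p = 0.788 and 0.501).

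Vegfa was dim as well. On U74Av2 its signals were 56.6 and 82.4 in wild-type, 46.3 and 89.8 in heterozygote, and 9.60 and 89.1 in knockout ganglia, so the genotypes overlapped and knockout array 1 stood alone at the low end. Knockout minus wild-type was -0.38. The U74Bv2 probe set of Vegfa, a type designed with relaxed rules, read 25.7 on the lone wild-type array. Its heterozygote signals were 204 and 180 and its knockout signals 120 and 147. There the wild-type array was lowest, with knockout minus wild-type at 1.27 and heterozygote minus wild-type at 1.68 on the log2 scale. Both probe sets fell below the filter, and without it neither passed (adjusted p = 1.00 and 0.385 for knockout minus wild-type).

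Vegfb was the ligand measured with the least spread. Its signals were 713 and 649 in wild-type, 821 and 602 in heterozygote, and 668 and 549 in knockout ganglia, and the genotypes overlapped. Knockout minus wild-type was -0.16 (95% interval -0.72 to 0.41, adjusted p = 1.00). Pgf, placental growth factor, read 162 and 158 in wild-type, 244 and 140 in heterozygote, and 175 and 240 in knockout ganglia. Its knockout arrays stood above both wild-type arrays but within the range of the heterozygotes, with a difference from wild-type of 0.28 (95% interval -0.45 to 1.02, adjusted p = 1.00).

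None of the receptors passed. Flt4, the receptor of Vegfc and Vegfd, read 213 and 191 in wild-type, 162 and 188 in heterozygote, and 170 and 94.6 in knockout ganglia on its brighter probe set. Both knockout arrays lay below both wild-type arrays, and knockout minus wild-type was -0.50 ± 0.30 SE (95% interval -1.21 to 0.21, adjusted p = 1.00). A dimmer Flt4 probe set, under the filter, read 78.6 and 16.6 in wild-type, 37.1 and 19.0 in heterozygote, and 16.8 and 43.4 in knockout ganglia, with overlap throughout.

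Kdr, the main signalling receptor for Vegfa, read 211 and 229 in wild-type, 259 and 146 in heterozygote, and 181 and 175 in knockout ganglia. The knockout arrays lay below the wild-type arrays, within the heterozygote range, at a difference of -0.24 ± 0.30 SE (95% interval -0.94 to 0.46, adjusted p = 1.00). Flt1, which binds Vegfa, Vegfb and Pgf, read 133 and 153 in wild-type, 91.8 and 223 in heterozygote, and 107 and 162 in knockout ganglia on its tested probe set (-0.08 ± 0.38 SE, 95% interval -0.98 to 0.82, adjusted p = 1.00). That sign turned without knockout array 1, to 0.14. A further Flt1 probe set on U74Av2 and one on U74Bv2 were under the filter. The former read 74.3 and 71.5 in wild-type, 52 and 55.1 in heterozygote, and 100.1 and 56.7 in knockout ganglia. Its heterozygote arrays both lay below both wild-type arrays. On U74Bv2 Flt1 read 251 in wild-type, 53.5 and 189 in heterozygotes, and 277 and 70.9 in knockouts, a spread within genotypes as wide as that between them.

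**Figure D2:**
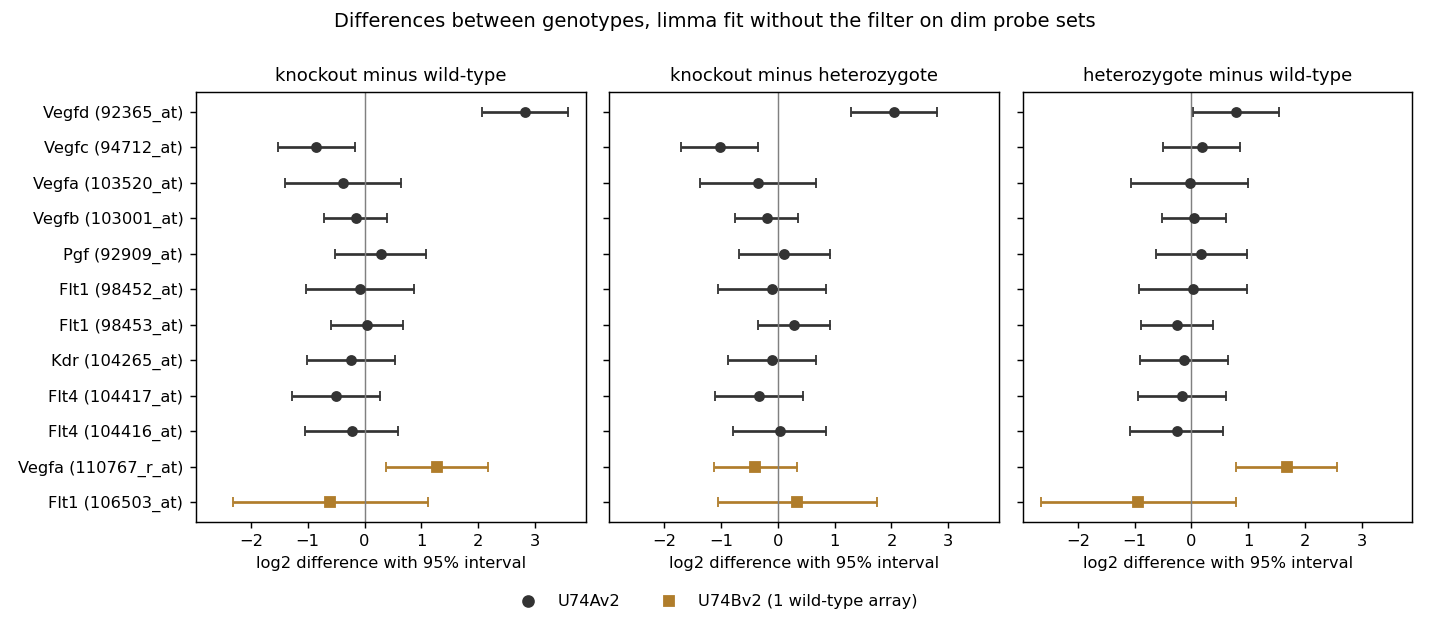
Log2 differences between genotypes with 95% intervals for all 12 VEGF ligand and receptor probe sets, from the limma fit without the filter on dim probe sets (circles U74Av2, squares U74Bv2). For Vegfd the knockout differs from wild-type by 2.82 (2.06 to 3.58), while the other 9 U74Av2 probe sets lie between -0.85 for Vegfc and 0.28 for Pgf.

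Of the 10 member probe sets on U74Av2, 6 passed the filter, and Vegfd alone was called in knockout against wild-type. None was called in knockout against heterozygote or in heterozygote against wild-type. The knockout and wild-type arrays did not overlap for 5 of the 10 (Vegfd and Pgf higher, Vegfc, Flt4 and Kdr lower), against 30% of all 12422 probe sets that were not controls. Knockout and heterozygote arrays did not overlap for 3 of the 10, against 28.8%, and heterozygote and wild-type arrays for 3 of the 10, against 23.8%. Vegfd was among them each time. Neither of the 2 U74Bv2 probe sets passed the filter, so the family was not tested on that array, where 1.4% of 7446 probe sets were called in knockout against wild-type and 0% in heterozygote against wild-type.

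The rise of Vegfd was set against each relative directly. Over the 2 knockout arrays against the 4 others, Vegfd was 2.43 higher on the log2 scale. The other 9 probe sets moved by -0.94 (Vegfc) to 0.20 (Pgf) in the same arrays. The difference of changes was smallest against Pgf, at 2.24, and largest against Vegfc, at 3.37. Vegfd minus the relative was higher in both knockout arrays than in all 4 others for each of the 9, which gave an exact two-sided permutation p of 0.0667 each time (0.0667 after adjustment over 9). This is the smallest value that 15 divisions of 6 arrays allow, so the design cannot reach 0.05. The 9 comparisons share the same Vegfd values, and Vegfd was picked with earlier results of these data known. Its own separation sets all 9 results, so they add no support for its rise.

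The U74Av2 probe sets with the pattern most like that of Vegfd were those of Msc, Htr3a, Rab3b, Serpini1, Zbtb16 and Neurod4. Likeness was the root mean square difference over 6 arrays between log2 values, each centred on its own mean, over 6724 tested probe sets with a single symbol, where the median was 1.22. Msc, a bHLH transcription factor, was closest at 0.24, with signals of 195 and 191 in wild-type, 277 and 274 in heterozygote, and 1578 and 1685 in knockout ganglia. As its choice by likeness favours, its arrays fell, like those of Vegfd, into 3 separate levels in the order wild-type, heterozygote, knockout.

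The serotonin-gated channel subunit Htr3a followed at 0.34 and also had both heterozygote arrays (1129 and 1242) above both wild-type arrays (1049 and 854). The vesicle GTPase Rab3b, at 0.39, had heterozygote signals of 60.4 and 59.0 that overlapped the wild-type signals of 64.7 and 59.4, with 593 and 666 in knockouts. The serine protease inhibitor Serpini1 (0.51), the zinc-finger factor Zbtb16 (0.55, on a probe set shared by related transcripts) and the neurogenic factor Neurod4 (0.56) completed the list. They were chosen by their likeness to Vegfd on these arrays, so their high knockout signals follow from the choice and carry no test.

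**Figure D3:**
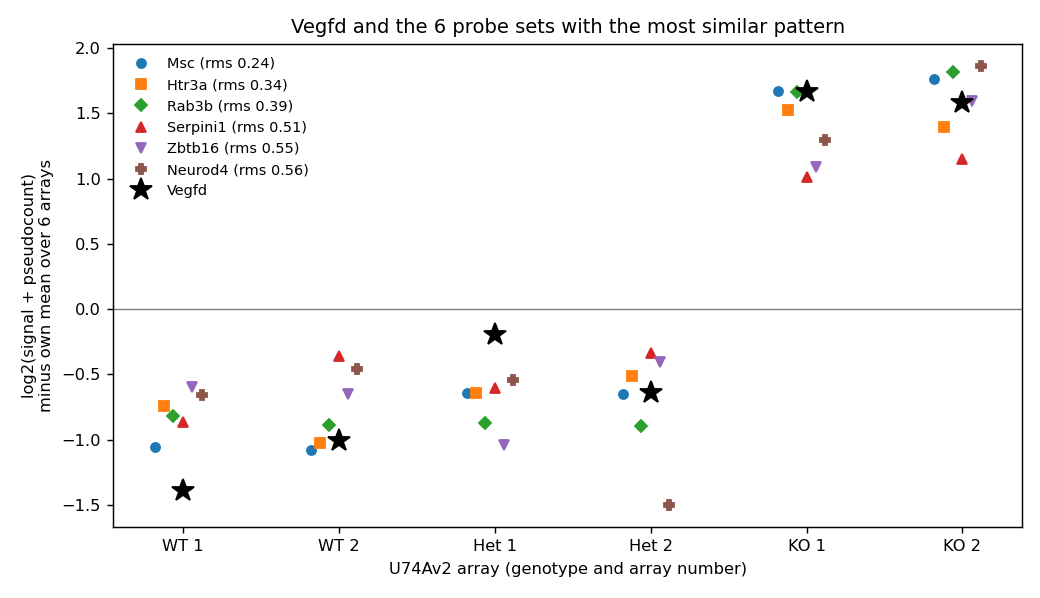
Log2(signal + pseudocount) minus each probe set's own mean, on each of the 6 U74Av2 arrays (1 column per array), for Vegfd (stars) and the 6 most similar probe sets of other genes, with their root mean square difference (rms) in the legend. All 7 are high on both knockout arrays, and Vegfd, Msc and Htr3a have both heterozygote arrays above both wild-type arrays. The 6 were chosen for likeness to Vegfd over these same arrays.

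Among the co-receptors, Nrp2 rose. Neuropilin 2, a co-receptor of Vegfc, Vegfd and class 3 semaphorins, was measured on U74Bv2 with signals of 467 in wild-type, 598 and 673 in heterozygotes, and 1828 and 1663 in knockouts. Both knockout arrays stood above all others, and the heterozygotes lay above the wild-type array. Knockout minus wild-type was 1.80 ± 0.21 SE (3.47-fold, limma adjusted p = 0.00771) and knockout minus heterozygote 1.39 ± 0.17 SE (adjusted p = 0.00614), in comparisons that called 1.4% and 1.71% of probe sets.

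Nrp1, the co-receptor of Vegfa, lay in the opposite direction on U74Av2 and did not pass in the main fit, which takes no account of array numbers. With a replicate block both Nrp1 probe sets were called, as the closing section gives. Its brighter probe set read 5306 and 6366 in wild-type, 6070 and 6266 in heterozygote, and 3037 and 3975 in knockout ganglia. Both knockout arrays lay below the other 4, at a difference from wild-type of -0.73 ± 0.22 SE (adjusted p = 0.639). A further Nrp1 probe set read 1611 and 4946, 1499 and 3783, and 862 and 2159 in the same order, with number 1 arrays lower than number 2 arrays in every genotype and knockout lowest within each number.

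Other genes of the pathway showed no call. Of 17 tested co-receptor and signalling genes on U74Av2 none was called in knockout against wild-type, with a median difference of 0.03 beside 0.02 over all tested probe sets. The brightest were Nrp1, the small GTPase Rac1 (0.03) and Cdc42 (0.19). On U74Bv2, Nrp2 was the 1 called of 9 (median -0.01). Among 12 tested genes of the hypoxia list, both regulators and response genes, none was called on U74Av2 (median -0.06). The brightest were Hif1a (-0.36, a family probe set), which turns on Vegfa in low oxygen, and the glycolytic enzymes Ldha (-0.11) and Pgk1 (0.10).

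None of 7 proteases was called (median -0.10), where Furin, which trims the Vegfc and Vegfd precursors, differed by 0.05, the tissue plasminogen activator Plat by -0.29 and Ctsd by -0.10. The widest differences of the list in each direction were those of the convertases Pcsk5 (1.04 ± 0.38 SE, adjusted p = 0.841) and Pcsk7 (-0.50 ± 0.32 SE, adjusted p = 1.00). None of 8 AP-1 factors was called (median 0.08), among them Jund (0.24), Fosb (0.26) and Jun (0.18). On U74Bv2 none was called among 7 genes of the hypoxia list (median 0.06), led by Vhl (0.06), Arnt2 (0.25) and Arnt (0.10). Neither AP-1 factor tested there, Maf (-0.60) and Fosl2 (-0.36), was called.

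**Figure D4:**
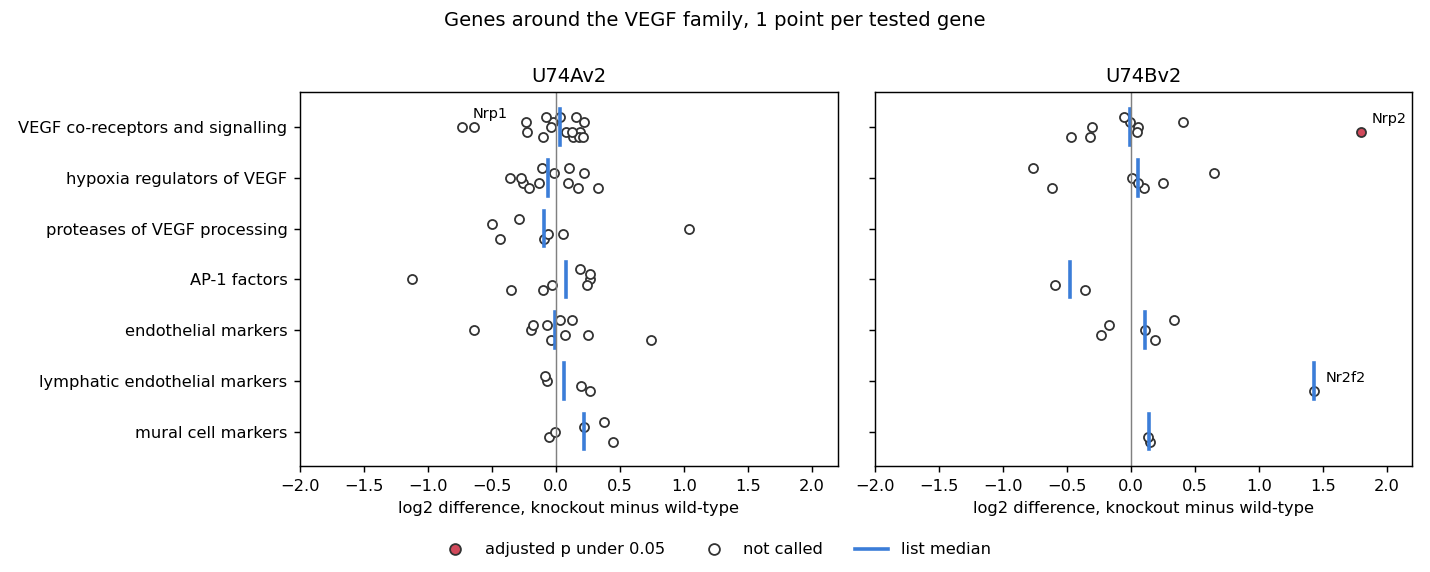
Log2 difference, knockout minus wild-type, for tested genes of 7 lists around the VEGF family (1 point per gene, filled where the adjusted p was under 0.05, bar at the list median) on U74Av2 (left) and U74Bv2 (right). Nrp2 on U74Bv2, at 1.80, is the single filled point, and Nrp1 on U74Av2 lies at -0.73.

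Receptor signal was read beside markers of vessel cells, because in pooled tissue fewer cells of a type and less RNA per cell cannot be told apart. The summed signal of 16 endothelial markers on U74Av2 was 3905 to 4152 in wild-type, 3739 to 4077 in heterozygote and 3749 to 4054 in knockout ganglia, so the genotypes overlapped. None of 10 tested endothelial genes was called (median -0.00). Cdh5, the cadherin of endothelial junctions, read 434 and 478 in wild-type and 290 and 260 in knockout ganglia (-0.64 ± 0.24 SE, adjusted p = 0.874). Pecam1, an adhesion molecule of the same cells, read 133 and 207 in wild-type and 321 and 303 in knockout ganglia (0.74 ± 0.33 SE, adjusted p = 0.995), so these endothelial genes stood in opposite directions. The 3 brightest were Eng (0.03), Emcn (-0.07) and Sox18 (-0.18, a family probe set). On U74Bv2 none of 5 was called (median 0.11), led by Plvap (-0.17), Aplnr (0.19) and Mmrn2 (0.11).

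Flt4 and Nrp2 are known to act together in lymphatic endothelium. Of its markers, Prox1 (15.7 to 83.9) and Lyve1 (13.3 to 61.8) lay below the filter on U74Av2, which does not show that these cells were absent. Of 4 tested lymphatic markers none was called (median 0.06), among them Nr2f2 (0.19), Foxc2 (0.27) and Pdpn (-0.07). Nr2f2, a nuclear receptor that is also made by veins and other tissues, read 780 in wild-type, 955 and 1601 in heterozygotes, and 2187 and 2195 in knockouts on U74Bv2 (1.43 ± 0.28 SE, adjusted p = 0.0529). None of 5 mural cell markers was called (median 0.22), with Notch3 at -0.01, Rgs5 at 0.22 and Des at -0.06, nor were Myh11 (0.13) and Abcc9 (0.15) on U74Bv2.

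The summed signals of glial and connective tissue markers were highest on the knockout arrays, as was Vegfd. The summed signal of 9 Schwann and satellite glia markers on U74Av2 was 16757 to 18240 in wild-type, 18948 to 20509 in heterozygote and 21518 to 23959 in knockout ganglia, without overlap. That of 11 connective tissue markers was 9603 to 11220, 10606 to 11247 and 12533 to 13938 in the same order, highest in knockout. No member of either list was called (8 tested each, 5 and 8 of them positive, medians 0.20 and 0.35), with Fabp7 at 0.45, Sox10 at 0.23 and Erbb3 at 0.18 among glia and Col1a2 (0.02, relaxed design), Postn (0.53) and Col1a1 (0.29) in connective tissue. Fabp7 made up most of the glial sum, with means of 10598, 13165 and 14506 in wild-type, heterozygote and knockout ganglia, while Pmp22 (-0.31), Foxd3 (-0.05) and Gfap (-0.01) were negative. Their part in the rise of Vegfd was not tested.

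No other marker list had a called member on U74Av2 in knockout against wild-type. Medians were -0.02 over 14 sensory neuron markers, 0.04 over 6 macrophage markers, -0.06 over 9 skeletal muscle markers and 0.26 over 6 red blood cell markers. The brightest members were Tubb3 (0.36), Stmn2 (0.01) and Uchl1 (0.12) for neurons, C1qc (-0.47), Cd14 (0.14) and C1qb (0.13) for macrophages, Actc1 (0.66), Myod1 (-0.09) and Myog (-0.11) for muscle, and Hbb-y (0.58), Hba-a1 (0.38) and Hba-x (-0.25) for red blood cells. Of the 14 neuron markers 7 were positive, and those furthest below 0 were Scn9a (-1.07), Prph (-0.87), Sncg (-0.69) and Elavl4 (-0.67), none of them called (adjusted p = 0.700 to 1.00).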

How the data were processed

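Each deposited value is the intensity of a probe set on a linear scale. The submitters' processing notes name MAS5 for this step. Its version and scaling target and the presence calls were not given in the sources used here, and no probe set is called absent. The arrays' 2% trimmed means lay between 500.26 and 500.29 (U74Av2) and between 497.61 and 498.38 (U74Bv2), and no further scaling was applied. Symbols are those of GEO's platform annotation, which can be old. On U74Av2 10855 probe sets had 1 symbol, 396 several and 1237 none, and on U74Bv2 10581, 178 and 1652. Log2(signal + 50.0) on U74Av2 and log2(signal + 49.8) on U74Bv2 were fitted by genotype over all arrays of a type with limma 3.58.1 in R 4.3.3 (eBayes with an intensity trend). The 66 controls and probe sets at or below percentile 40 of mean log2 were left out. P-values were adjusted by Benjamini-Hochberg over all probe sets tested. The script was tested on simulated data. It was first required to recover a set share of the differences put in, and it failed. That criterion was replaced by unbiased estimates, recovery that grew with the size of a difference and few false calls, which it passed. The lone wild-type U74Bv2 array was assumed to vary like the others. Plots used Python 3.11.15 with matplotlib 3.10.9.

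All members were named with every probe set, and from each list the called genes, or otherwise the 3 with the highest mean, taking a gene's brightest tested probe set. Cdh5, Pecam1, Prox1, Lyve1, Pcsk5, Pcsk7, Pmp22, Foxd3, Gfap, Scn9a, Prph, Sncg, Elavl4 on U74Av2 and the dimmer Nrp1 probe set lie outside this rule and were singled out after their values were seen. The members and lists were chosen with earlier results of these data known. Precision is limited by having 1 or 2 arrays per genotype, and real differences can be missed. A gene that was not called is therefore not shown to be unchanged.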

Additional observations from a re-analysis of the deposited data

How the results depend on the processing

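Alternatives were pseudocounts of 16 and of 2 times the main value, no filter, no intensity trend, quantile normalization, a replicate block and leaving out each array. Vegfd kept its sign in all 3 comparisons under each of them. Its call in knockout against wild-type was lost with a pseudocount of 16 (3.60), where it fell below the filter and the count of called members went from 1 to 0. At that pseudocount with no filter, added after seeing the data, it was called at an adjusted p just under 0.05. Leaving out 1 array gave 2.63 to 3.02 and 0 to 1 called members, and the call held only without a heterozygote array while the filter stood. With no filter as well, also added after seeing the data, it was lost in each of the 6 cases (adjusted p = 0.154 to 0.483). Knockout minus heterozygote (2.04) was called without an intensity trend (adjusted p = 0.0479) and with the replicate block (adjusted p = 0.0212), 1 member in each. The tested Flt1 probe set, at -0.08 in knockout against wild-type, ranged from -0.30 to 0.14 when 1 array was left out. Nrp2 was called under every alternative run; knockout against wild-type on U74Bv2 cannot be computed without its lone wild-type array.

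The labels do not say what the shared replicate numbers mean. Differences between number 1 and number 2 arrays correlated between genotypes at 0.53 to 0.62 on U74Av2 and at 0.10 on U74Bv2, across probe sets, which are not independent. With the replicate block Vegfd was called in knockout against wild-type at adjusted p = 0.00514, Nrp1 was called lower in knockout by both probe sets (adjusted p = 0.0483 and 0.0160 against wild-type, 0.0335 and 0.0419 against heterozygotes), and calls over all U74Av2 probe sets went from 19 to 130, and from 14 to 129 against heterozygotes. On U74Bv2 they went from 104 to 216 and from 127 to 317. Without 1 array, U74Av2 calls against wild-type ranged from 0 to 15 and against heterozygotes from 0 to 11. U74Bv2 calls against wild-type and against heterozygotes fell to 40 and 81 without the trend and to 21 and 54 without the filter. They rose in every fit run without 1 array. Heterozygote against wild-type there went from 0 to 7 calls with the block and to 10 without knockout array 1. Of the 12 member probe sets, 6 were too dim to be tested.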
